A study of Mus musculus with 12 samples.

Results

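Aminoacyl-tRNA synthetases are the enzymes that join each amino acid to its transfer RNA (tRNA). The synthetase genes described here were all genes of the deposited gene count matrix whose symbol is an amino acid letter followed by ars, with or without a final 1 or 2, together with Farsa, Farsb and Eprs. The rule found 37 of 55487 genes, and it used symbols only, no measured value. By textbook knowledge 18 of them code for cytosolic enzymes, 17 for mitochondrial enzymes, and Gars and Kars for enzymes that serve both compartments. All 37 passed the filter on low counts, so that none was left out of the tests. RNA had been measured in 12 libraries of polyA-selected RNA from female mouse embryonic stem (ES) cells, hybrids of the C57BL6 and CAST strains, in 4 groups of 3. The groups were cells labelled SIRT7-KO (a knockout of the gene for the sirtuin SIRT7, a nuclear protein deacylase; called KO below) at day 7, wild type (WT) at day 7, KO at day 0 and WT at day 0. Day 0 cells had grown with leukaemia inhibitory factor (LIF), the cytokine that holds ES cells undifferentiated, and day 7 cells were taken 7 days after LIF had been removed. The treatment label of the single libraries reads otherwise, as given below. The labels give no clone, passage or culture for a library, so that p-values measure the spread between libraries, which may be technical, and 1 clone against another cannot be told apart from KO against WT.

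Translation needs a synthetase for every amino acid in the cytosol and again in mitochondria, where a separate ribosome translates the mitochondrial genome. Nearly all mitochondrial enzymes are made from nuclear genes of their own, named with a final 2, while glycyl- and lysyl-tRNA synthetase (Gars, Kars) reach both places from 1 gene each. In mammals several cytosolic enzymes sit in a multi-synthetase complex held by the scaffold proteins Aimp1, Aimp2 and Eef1e1. When amino acids run short or proteins misfold, the transcription factor ATF4 is known to raise many cytosolic synthetase genes through the C/EBP-ATF response element (CARE).

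Library totals ran from 25190483 to 69079368 counts. Sirt7 itself was higher in the libraries labelled KO, at 25.1, 20.1 and 23.8 CPM (counts scaled to the same library size) in KO and 10.2, 10.6 and 15.3 CPM in WT at day 7, and at 19.2, 23.8 and 16.9 CPM in KO and 12.7, 8.03 and 10.3 CPM in WT at day 0. It did not pass the test (log2 difference 0.94, SE 0.21, adjusted p = 0.299 at day 7 and 0.95, SE 0.21, adjusted p = 0.182 at day 0), so every KO direction below rests on the labels. A separate treatment label, LIF or none, goes by replicate and genotype in both days and not by day. It reads LIF for KO replicates 1 and 3 and WT replicate 2, and none for KO replicate 2 and WT replicates 1 and 3. The label thus conflicts with the LIF state by day given above, and it is not balanced between the genotypes. The 8 naive ES cell markers, Pou5f1 and Nanog among them, summed to 429 to 479 CPM in day 7 libraries and to 6757 to 7200 CPM in day 0 libraries. Of these 8 markers 7 fell and 1 did not pass in each genotype. Lists for mesoderm, endoderm, neural cells, trophoblast and epithelium, and fibroblasts were all higher in sum at day 7 (the 6 mesoderm markers, 1922 to 2468 CPM at day 7 against 4.97 to 7.79 CPM at day 0). However, 2 of the 3 neural markers tested and 1 of the 6 fibroblast markers fell in each genotype. In these bulk samples a change of RNA within a cell and a change in the mix of cells cannot be told apart.

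Cytosolic synthetase mRNAs stood above mitochondrial ones in every group once counts were divided by exon length. The median level of the 18 cytosolic genes was 31.3 CPM per kilobase (kb) in KO and 34.0 in WT at day 7, and 49.0 in KO and 48.0 in WT at day 0. The median of the 17 mitochondrial genes was 3.34 CPM per kb in KO and 3.41 in WT at day 7, and 3.77 in KO and 5.06 in WT at day 0. Per kb, Kars and Gars stood above all other members in each group: Kars averaged 149.5 ± 0.677 CPM per kb in KO and 161 ± 4.17 in WT at day 7, and 176 ± 13.9 in KO and 191 ± 6.82 in WT at day 0 (SD, n = 3 each). Levels and ranks per kb depend on the merged exon lengths used, and by CPM alone Aars was above both genes at day 0. Aars, for alanyl-tRNA synthetase, led the cytosolic genes in all 4 groups, at 62.2 ± 7.44 CPM per kb in KO and 74.2 ± 10.7 in WT at day 7, and 142 ± 13.9 in KO and 143 ± 13.8 in WT at day 0. Sars2, for mitochondrial seryl-tRNA synthetase, led the mitochondrial genes in all 4 groups, with 13.5 ± 0.455 CPM per kb in KO and 15.5 ± 2.01 in WT at day 7, and 14.5 ± 1.09 in KO and 18.05 ± 0.926 in WT at day 0. The 2 classes overlapped by 1 gene in KO cells at day 7, where Sars2 lay above the lowest cytosolic gene, Cars, at 12.8 ± 0.543 CPM per kb. Lars2 and Nars2 were near the low end in every group, with 0.416 to 0.873 CPM per kb for Lars2 and 0.585 to 0.795 CPM per kb for Nars2 as the range of group means.

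Over the 7 days most mRNAs of cytosolic enzymes passed the test as lower, while those of mitochondrial enzymes did so at about the share of all genes given below. Mitochondrial log2 fold changes were below 0 in 12 of 17 genes in KO and in 10 of 17 in WT. A gene that did not pass is not shown to be unchanged. Over both day comparisons the SE ran from 0.06 to 0.13 for cytosolic genes and from 0.09 to 0.76 for mitochondrial genes, so the classes did not have equal power to pass. In KO cells 15 of the 18 cytosolic genes fell, 0 rose and 3 did not pass, with a median log2 fold change of -0.63. In WT cells 14 fell, 1 rose (Wars) and 3 did not pass, with a median of -0.45. Gars and Kars fell in both genotypes. Of the 17 mitochondrial genes 5 fell, 1 rose and 11 did not pass in KO cells (median -0.11), and 5 fell, 4 rose and 8 did not pass in WT cells (median -0.20). The test was edgeR's quasi-likelihood test with Benjamini-Hochberg adjustment over 19235 genes and a threshold of 0.05. For all members that came to 22 lower and 1 higher of 37 in KO cells, where 32.3% of all genes tested were lower and 31.1% higher, and to 21 lower and 5 higher in WT cells, where 32.1% were lower and 32.9% higher. By single libraries, the day groups did not overlap in 23 members that were lower and 4 that were higher in KO, where 34.9% of all genes were apart downward and 34.6% upward, and in 24 and 3 members in WT, where 35.6% were apart downward and 36.4% upward. The median over all genes tested was -0.02 in KO and 0.01 in WT. The KO and WT comparisons share no library: 20 members were lower in both, which is 90.9% of the KO list and 95.2% of the WT list, and Wars2 was higher in both.

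**Figure D1:**
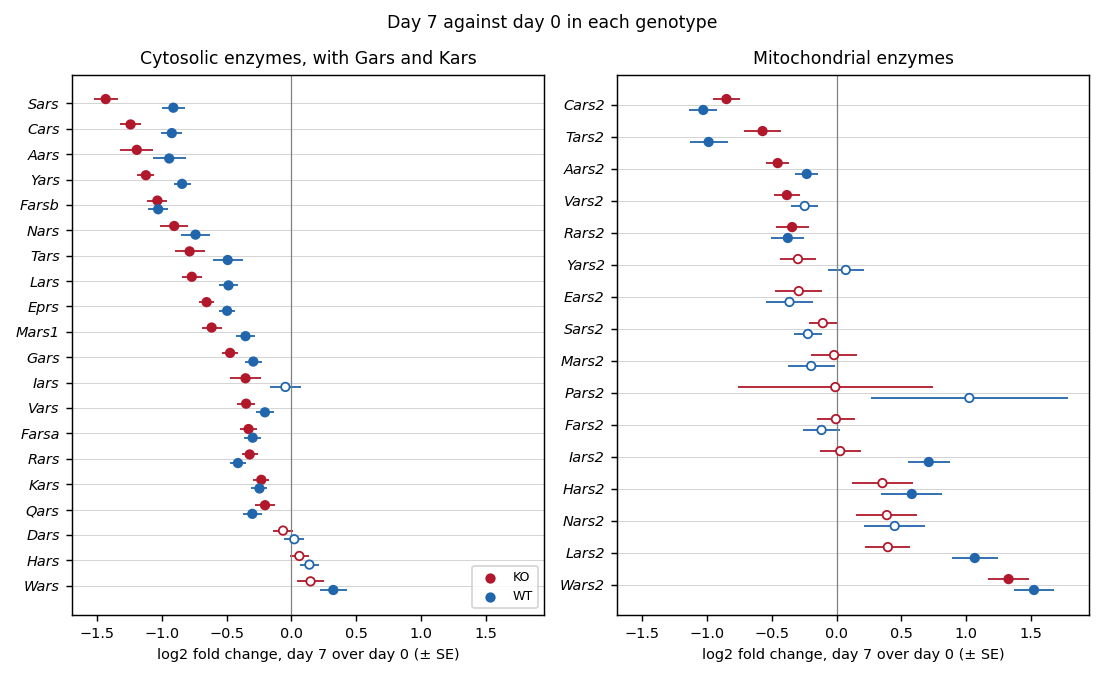
Log2 fold change of the synthetase genes, all but 1, at day 7 over day 0 (x axis) in KO (red) and WT (blue), with its SE as a bar. Filled points passed the test at an adjusted p of 0.05. Genes run down by their KO value, from Sars at -1.43 to Wars at 0.15 on the left and from Cars2 at -0.85 to Wars2 at 1.33 on the right.

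Summed over genes, the 18 cytosolic mRNAs took 3242, 3141 and 3208 CPM in KO at day 7 against 5261, 5487 and 5460.2 CPM at day 0. In WT the same sum was 3708, 3651 and 3349 CPM at day 7 against 5673, 5093 and 5112 CPM at day 0. The mitochondrial sum differed less, with 412, 415 and 387 CPM in KO at day 7 against 481, 466 and 475 CPM at day 0, and 443, 446 and 449.5 CPM in WT at day 7 against 530.4, 510.1 and 507 CPM at day 0. The mitochondrial sum was thus 12.7, 13.2 and 12.1% of the cytosolic sum in KO at day 7 against 9.15, 8.49 and 8.71% at day 0. In WT it was 11.96, 12.2 and 13.4% at day 7 against 9.35, 10.02 and 9.93% at day 0. The day groups did not overlap in either genotype, and the log2 ratio of the sums was higher at day 7 by 0.53 in KO and by 0.36 in WT. No test was made on these sums.

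**Figure D2:**
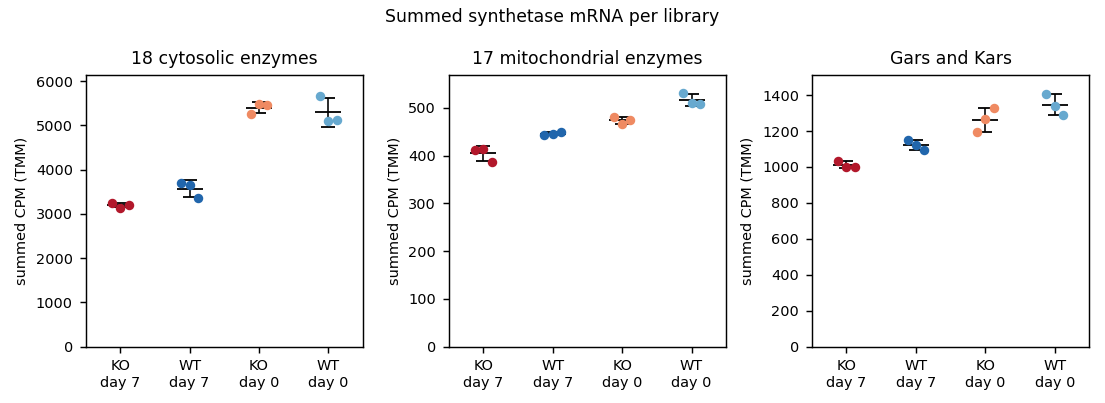
Summed CPM per library (y axis, from 0) of the 18 cytosolic, the 17 mitochondrial and the 2 dual enzymes, by group. Points are libraries, the horizontal line is the mean and the bar the SD of 3. Cytosolic sums lie at 3141 to 3708 CPM at day 7 and at 5093 to 5673 CPM at day 0.

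The steepest falls among cytosolic enzymes were those of seryl- (Sars), cysteinyl- (Cars), alanyl- (Aars) and tyrosyl-tRNA synthetase (Yars), and of the beta subunit of phenylalanyl-tRNA synthetase (Farsb). Sars (chromosome 3, 108424865 to 108445209, GRCm38) had 167, 149.6 and 155 CPM in KO at day 7 against 403, 434 and 436 CPM at day 0, and 244, 200.4 and 204 CPM in WT at day 7 against 445, 399 and 377 CPM at day 0. Its log2 fold change was -1.43, SE 0.09, adjusted p = 1.38e-07 in KO and -0.91, SE 0.09, adjusted p = 5.14e-06 in WT. All 6 day 7 libraries were below all 6 day 0 libraries, and the lowest 3 were the KO libraries of day 7. Yars (chromosome 4, 129189760 to 129219607) had 143, 143 and 146 CPM in KO at day 7 against 296, 324 and 321 CPM at day 0, and 186, 174 and 175 CPM in WT at day 7 against 345, 306 and 309 CPM at day 0. It fell by 1.12 (SE 0.07) in KO and by 0.84 (SE 0.07) in WT on the log2 scale. The day groups did not overlap in either genotype. Cars (chromosome 7, 143557230 to 143600090) had 85.1, 87.2 and 80.3 CPM in KO at day 7 against 179, 204 and 214 CPM at day 0, and 108, 103 and 98.2 CPM in WT at day 7 against 202, 203 and 182 CPM at day 0, a fall by 1.24 (SE 0.08) in KO and by 0.92 (SE 0.08) in WT. Aars (chromosome 8, 111033144 to 111057664) had 618, 498 and 616 CPM in KO at day 7 against 1172, 1409 and 1378 CPM at day 0, and 767, 723 and 577 CPM in WT at day 7 against 1455, 1199 and 1318 CPM at day 0. Its fall was 1.19 (SE 0.13) in KO and 0.94 (SE 0.13) in WT, and the day groups did not overlap.

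Behind these came asparaginyl- (Nars), threonyl- (Tars) and leucyl-tRNA synthetase (Lars), the fused glutamyl-prolyl enzyme (Eprs) and methionyl-tRNA synthetase (Mars1). Nars had 133, 166 and 136 CPM in KO at day 7 against 282, 261 and 270.3 CPM at day 0 (-0.90, SE 0.11), and 149, 157 and 143 CPM in WT at day 7 against 289.5, 231 and 229 CPM at day 0 (-0.74, SE 0.11). Tars had 144, 129 and 128 CPM in KO at day 7 against 263, 221 and 207 CPM at day 0 (-0.78, SE 0.12), and 135, 159.7 and 147 CPM in WT at day 7 against 238, 194 and 189 CPM at day 0 (-0.49, SE 0.11). Every day 7 library of either gene was below every day 0 library. Lars fell by 0.77 in KO and by 0.49 in WT, Eprs by 0.65 and by 0.50, and Mars1 by 0.62 and by 0.35, in that order of genotypes and with adjusted p of at most 0.00171. Smaller falls that passed in both genotypes were those of valyl- (Vars, -0.35 in KO and -0.20 in WT), arginyl- (Rars, -0.32 and -0.41) and glutaminyl-tRNA synthetase (Qars, -0.20 and -0.30). Qars has no mitochondrial partner gene, since mitochondria form glutaminyl-tRNA by another route.

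**Figure D3:**
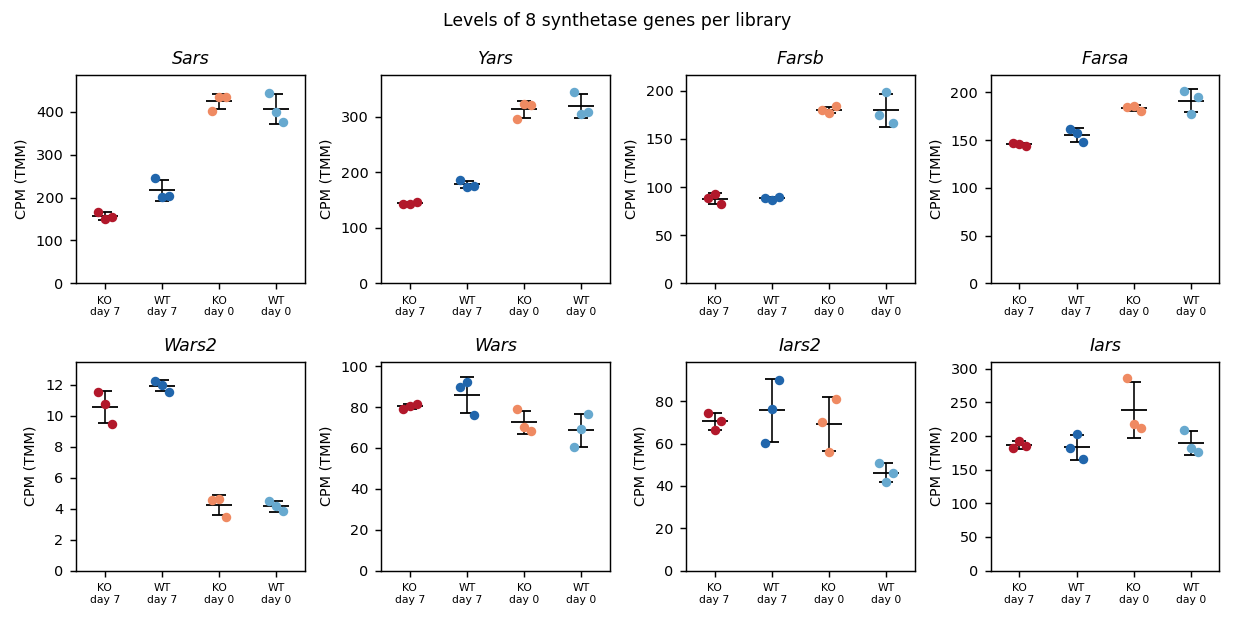
CPM per library (y axis, from 0) of 8 synthetase genes by group. Points are libraries, the line is the mean and the bar the SD of 3. Sars, Yars and Farsb lie lower at day 7 in both genotypes, Wars2 lies higher in both, and the Iars2 day groups are apart in WT (60.4, 76.6 and 90.2 against 50.7, 41.9 and 46.2 CPM).

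The 4 cytosolic genes that did not fall in both genotypes included histidyl- (Hars), aspartyl- (Dars) and tryptophanyl-tRNA synthetase (Wars), besides isoleucyl-tRNA synthetase (Iars). Hars had 145, 141 and 139 CPM in KO at day 7 against 132, 145 and 130.1 CPM at day 0, and 145, 146 and 144 CPM in WT at day 7 against 125, 144 and 126 CPM at day 0, and the groups overlapped. The difference was 0.06, SE 0.07, adjusted p = 0.475 in KO and 0.14, SE 0.07, adjusted p = 0.109 in WT. Dars had 77.5 to 90.5 CPM over the day 7 libraries and 76.2 to 97.9 CPM over those of day 0, with differences of -0.06 (SE 0.08) in KO and 0.02 (SE 0.08) in WT. Wars had 79.1, 80.6 and 81.6 CPM in KO at day 7 against 79.00, 70.4 and 68.4 CPM at day 0 (0.15, SE 0.11, adjusted p = 0.241), and 89.6, 92.2 and 75.9 CPM in WT at day 7 against 60.4, 69.3 and 76.4 CPM at day 0 (0.32, SE 0.11, adjusted p = 0.0185). It passed in WT although 1 day 7 library lay below 1 day 0 library. Iars fell in KO (-0.35, SE 0.12, adjusted p = 0.0235) and had -0.05 (SE 0.12, adjusted p = 0.750) in WT. Its KO libraries of day 0 held 287, 218 and 211 CPM, the first of them well above the other two.

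The subunits of cytosolic phenylalanyl-tRNA synthetase, which forms a tetramer with an equal number of each, fell by unequal amounts. Farsb had 88.8, 92.9 and 82.2 CPM in KO at day 7 against 179.7, 177 and 184 CPM at day 0, and 88.7, 86.6 and 89.3 CPM in WT at day 7 against 174, 199 and 166 CPM at day 0, a log2 fold change of -1.03, SE 0.08, adjusted p = 4.89e-07 in KO and -1.03, SE 0.08, adjusted p = 4.95e-07 in WT. Farsa, the alpha subunit, had 147, 146 and 144 CPM in KO at day 7 against 185, 185 and 179.9 CPM at day 0, and 162, 157 and 148 CPM in WT at day 7 against 201, 178 and 195 CPM at day 0, a change of -0.33, SE 0.06, adjusted p = 0.000819 in KO and -0.30, SE 0.06, adjusted p = 0.00158 in WT. Per kb of exon, Farsb mRNA was 105, 110.3 and 98.8% of Farsa mRNA in KO at day 7 against 168, 165 and 177% at day 0. In WT it was 94.96, 95.6 and 105% at day 7 against 150.3, 194 and 148% at day 0. The day groups did not overlap for this ratio in either genotype. Its level depends on the merged exon lengths used, while its change between days does not.

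Genes of the multi-synthetase complex had a smaller median change than the other cytosolic genes. Of the 8 complex genes (Dars, Eprs, Iars, Lars, Mars1, Qars, Rars and Kars) 7 fell in KO, with a median log2 fold change of -0.34, and 6 fell in WT, with a median of -0.33. The 11 cytosolic genes outside it had medians of -0.90 in KO, with 9 lower, and -0.74 in WT, with 9 lower and 1 higher. Over all genes 32.3% fell in KO and 32.1% in WT. The 2 sets were not tested against each other. Among the scaffold genes Aimp1 fell in both genotypes (-0.35 in KO, -0.32 in WT) and so did Eef1e1 (-0.69 and -0.74), while Aimp2 rose in KO (0.22, SE 0.07, adjusted p = 0.0200) and had 0.16, SE 0.07, adjusted p = 0.0697 in WT.

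Kars, which codes for the lysyl enzyme, had 671, 667 and 665 CPM in KO at day 7 against 716, 798 and 838 CPM at day 0 (-0.23, SE 0.06, adjusted p = 0.00652), and 742, 713 and 707 CPM in WT at day 7 against 889.7, 834 and 840.0 CPM at day 0 (-0.25, SE 0.06, adjusted p = 0.00451). Gars, for the glycyl enzyme, had 364, 334 and 337 CPM in KO at day 7 against 478, 469 and 489.8 CPM at day 0 (-0.47, SE 0.06, adjusted p = 6.14e-05), and 408, 407 and 387 CPM in WT at day 7 against 518, 503 and 452 CPM at day 0 (-0.29, SE 0.06, adjusted p = 0.00185). Neither gene's day groups overlapped in either genotype, and both falls were smaller than the median fall of the cytosolic genes. Kars transcripts differ in the protein they code for: in human the longer protein carries the mitochondrial targeting sequence. Kars-201, which codes for 595 residues, took 13.5 to 21.7% of the authors' estimated Kars counts in KO and 11.6 to 27.1% in WT at day 7, and 16.9 to 24.0% in KO and 8.55 to 18.9% in WT at day 0. The groups overlapped. The transcripts Kars-202 and Kars-203 both code for 624 residues and held nearly all other counts. Kars-203 took 58.7% in 1 KO library of day 7 and at most 12.8% in any WT library, so the split between these 2 transcripts varied widely among libraries of a group.

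Promoters were searched for 4 short motifs in windows from 250 bases before to 50 bases after the gene start, from RefSeq on GRCm38.p6, which held 27 of the 37 members. CARE was searched as TGATGNAA, the E-box bound by MYC and its relatives as CACGTG, the CCAAT box as CCAAT, and the motif of NRF1 by its palindromic consensus, each on both strands. CARE was in 4 of 11 cytosolic windows (Aars, Iars, Tars and Yars), in that of Gars but not Kars, and in 0 of 14 mitochondrial windows, where 4.51% of 27025 genes with a window held it. The 5 windows with a match follow in part, 5′ to 3′ along the gene, with the CARE letters in capitals.

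Aars, chr8:111033717-111033861, plus strand: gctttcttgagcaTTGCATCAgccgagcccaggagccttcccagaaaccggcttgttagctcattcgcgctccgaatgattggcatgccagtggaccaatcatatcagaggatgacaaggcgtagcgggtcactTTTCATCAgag
Gars, chr6:55037941-55038020, plus strand: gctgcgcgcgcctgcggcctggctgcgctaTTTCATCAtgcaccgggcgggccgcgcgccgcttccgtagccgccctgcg
Tars, chr15:11399639-11399718, minus strand: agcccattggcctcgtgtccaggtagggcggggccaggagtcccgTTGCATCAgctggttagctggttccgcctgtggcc
Yars, chr4:129189843-129189922, plus strand: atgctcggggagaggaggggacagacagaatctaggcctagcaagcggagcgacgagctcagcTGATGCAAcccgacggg
Iars, chr13:49682070-49682149, plus strand: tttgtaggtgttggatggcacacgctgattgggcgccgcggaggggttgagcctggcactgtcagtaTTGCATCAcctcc

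Aars held 2 matches, from base -112 to -105 and from base 10 to 17 counted from the RefSeq gene start, and the other genes held 1 each. For Aars and Yars the RefSeq start lies inside the gene span given above, which is from another annotation, GENCODE. In KO the 5 genes with a match fell by 1.19 for Aars, 1.12 for Yars, 0.78 for Tars, 0.47 for Gars and 0.35 for Iars on the log2 scale, where 32.3% of all genes fell. In WT 4 of them fell, by 0.94 for Aars, 0.84 for Yars, 0.49 for Tars and 0.29 for Gars, where 32.1% of all genes fell, and Iars had -0.05 (adjusted p = 0.750). The Iars call in KO was lost under 3 of 20 alternatives. Farsb had no CARE letters in its window and fell by 1.03 in KO and by 1.03 in WT. Sars, for which no match of the 4 motifs was found and no window is shown here, fell by 1.43 in KO and by 0.91 in WT. The E-box was in 4 of 11 cytosolic windows (Aars, Farsb, Iars and Tars), in neither Gars nor Kars and in 1 of 14 mitochondrial windows (Ears2), against 8.09% of all genes. The NRF1 motif was in 2 of 11 cytosolic windows, in that of Kars and in 2 of 14 mitochondrial windows, against 5.19% of all genes. CCAAT was in 6 of 11 cytosolic windows, in that of Kars and in 6 of 14 mitochondrial windows, against 41.1% of all genes. The matches are letters in a window, and no binding was measured.

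Among mitochondrial enzymes the tryptophanyl enzyme Wars2 moved most. Wars2 (chromosome 3, 99141068 to 99239186) had 11.5, 10.8 and 9.48 CPM in KO at day 7 against 4.57, 4.66 and 3.47 CPM at day 0, and 12.3, 12.01 and 11.6 CPM in WT at day 7 against 4.51, 4.14 and 3.82 CPM at day 0. It rose by 1.33, SE 0.16, adjusted p = 2.04e-05 in KO and by 1.52, SE 0.16, adjusted p = 6.69e-06 in WT, and all day 7 libraries were above all day 0 libraries. Leucyl Lars2 had 6.98, 8.61 and 9.03 CPM in KO at day 7 against 5.86, 6.21 and 6.63 CPM at day 0 (0.40, SE 0.17, adjusted p = 0.0672), and 8.14, 10.1 and 10.8 CPM in WT at day 7 against 3.83, 5.11 and 4.899 CPM at day 0 (1.07, SE 0.18, adjusted p = 0.000266). The groups were apart in both genotypes, but only the WT rise passed. The longest exact run shared by an annotated Lars2 transcript and mt-Rnr2, the gene of the large mitochondrial ribosomal RNA, was 12 bases, and mt-Rnr2 itself fell (-1.33 in KO, -1.17 in WT). Exact runs do not show likeness with mismatches or in sequence outside the annotated transcripts. Whether reads of mt-Rnr2 entered the Lars2 counts was not tested. Isoleucyl Iars2 had 74.5, 66.4 and 70.9 CPM in KO at day 7 against 70.3, 56.1 and 81.3 CPM at day 0 (0.03, SE 0.16, adjusted p = 0.889), and 60.4, 76.6 and 90.2 CPM in WT at day 7 against 50.7, 41.9 and 46.2 CPM at day 0 (0.71, SE 0.16, adjusted p = 0.00235). Histidyl Hars2 had 0.35 (SE 0.23, adjusted p = 0.207) in KO and passed narrowly in WT (0.58, SE 0.23, adjusted p = 0.0472), where the groups overlapped.

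The cysteinyl and threonyl enzymes fell most. Cars2 had 23.8, 22.7 and 19.9 CPM in KO at day 7 against 36.8, 41.8 and 41.2 CPM at day 0 (-0.85, SE 0.11, adjusted p = 3.39e-05), and 24.1, 23.3 and 24.6 CPM in WT at day 7 against 53.5, 44.5 and 48.9 CPM at day 0 (-1.03, SE 0.11, adjusted p = 7.11e-06). Tars2 had 52.6, 49.8 and 37.02 CPM in KO at day 7 against 82.7, 65.1 and 59.3 CPM at day 0 (-0.57, SE 0.15, adjusted p = 0.00501), and 55.2, 55.5 and 54.9 CPM in WT at day 7 against 118, 108 and 102 CPM at day 0 (-0.99, SE 0.15, adjusted p = 0.000115). Both had day groups that did not overlap. Alanyl Aars2 and arginyl Rars2 also fell in both genotypes (-0.45 and -0.34 in KO, -0.23 and -0.38 in WT), and valyl Vars2 fell in KO (-0.38, SE 0.10, adjusted p = 0.00655). Glutamyl Ears2, phenylalanyl Fars2, methionyl Mars2, asparaginyl Nars2, prolyl Pars2, seryl Sars2 and tyrosyl Yars2 passed in neither genotype, with log2 differences between -0.30 (Yars2) and 0.39 (Nars2) in KO and between -0.36 (Ears2) and 1.02 (Pars2, SE 0.76) in WT. The mitochondrial genes that passed thus went both ways.

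For each amino acid with a mitochondrial gene the ratio of its mitochondrial to its cytosolic mRNA per kb was formed, in 18 pairs with Eprs as the cytosolic partner of Ears2 and of Pars2. Fars2 was paired with both Farsa and Farsb, so some pairs share a gene. Ratios were not formed for other gene pairs, so these counts have no share over all genes beside them. Among single genes 34.6% were apart upward and 34.9% downward in KO, and 36.4% and 35.6% in WT. The ratio was higher at day 7 in 15 of 18 pairs in KO, with 11 pairs whose groups did not overlap in that direction and 0 in the other. In WT it was higher in 14 of 18 pairs, with 9 pairs apart upward and 2 apart downward, Tars2 to Tars among the latter. Pars2 to Eprs, among those 9, varied widely at day 0 in WT, with 1.79, 14.1 and 1.66%, and is not read as a difference. For serine, Sars2 was 40.4, 48.00 and 44.05% of Sars in KO at day 7 against 16.9, 17.8 and 17.9% at day 0, and 35.1, 42.5 and 33.1% in WT at day 7 against 22.02, 22.2 and 24.4% at day 0. For tryptophan, Wars2 was 8.44, 7.75 and 6.74% of Wars in KO at day 7 against 3.35, 3.84 and 2.94% at day 0, and 7.93, 7.55 and 8.83% in WT at day 7 against 4.34, 3.47 and 2.899% at day 0. For serine it was the cytosolic mRNA that passed the test, as lower, and for tryptophan in KO it was the mitochondrial mRNA, as higher.

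Between KO and WT no synthetase gene passed on either day. At day 7 edgeR called 0 of 37 members at an adjusted p of 0.05, where it called 0.026% of all genes, and 7 members had an unadjusted p of at most 0.05, where 8.18% of all genes did. At day 0 it called 0 of 37, where it called 0.13% of all genes, and 8 members had an unadjusted p of at most 0.05, where 11.9% of all genes did. DESeq2 called 2 members at day 7 (Sars and Yars) and 1 at day 0 (Tars2), all lower in KO, beside 133 of 19497 and 329 of 16209 genes.

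**Figure D4:**
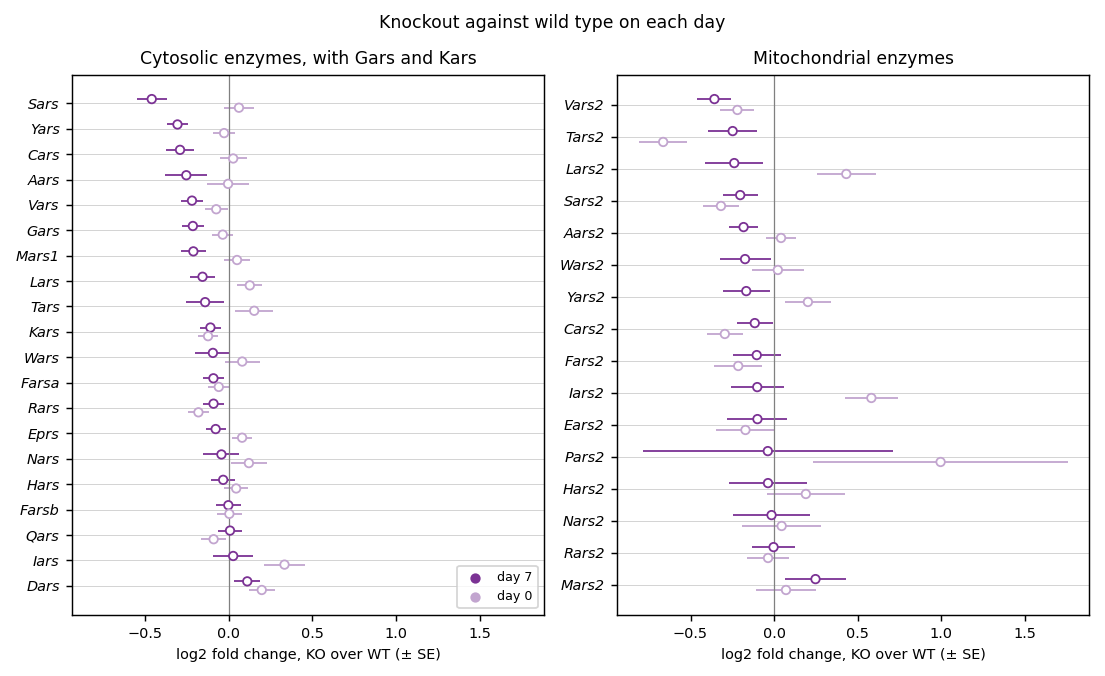
Log2 fold change of the synthetase genes, all but 1, in KO over WT (x axis) at day 7 (dark) and day 0 (light), with its SE as a bar. The points of the genes are open, since none passed the test. At day 7 most values are below 0, Sars lowest at -0.46, and at day 0 they lie on both sides.

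At day 7 most members had lower values in KO than in WT. The log2 difference was below 0 in 32 of 37 members, 15 of them cytosolic, both dual genes and 15 mitochondrial, with a median of -0.10 over the members and -0.02 over all genes. Of all 19235 genes tested, 8669 were above 0. The groups did not overlap in 15 members that were lower and in 1, Dars, that was higher, or 40.5 and 2.7% of the members, where 12.8% of all genes were apart downward and 6.7% upward. Sars had 167, 149.6 and 155 CPM in KO against 244, 200.4 and 204 CPM in WT (-0.46, SE 0.09, adjusted p = 0.223). Yars had 143, 143 and 146 CPM in KO against 186, 174 and 175 CPM in WT (-0.31, SE 0.07, adjusted p = 0.269). Cars followed with -0.29, SE 0.08, adjusted p = 0.432, Vars2 with -0.36, SE 0.10, adjusted p = 0.448 and Gars with -0.22, SE 0.06, adjusted p = 0.464. The samples were apart for each of these genes, yet the adjusted p did not pass over all genes. The summed trophoblast and epithelium markers were 3840 to 3989 CPM in KO and 4357 to 5148 CPM in WT at day 7, and the fibroblast markers 1033 to 1064 CPM in KO and 1295 to 1491 CPM in WT. Their part in the day 7 differences was not tested.

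At day 0 the members lay on both sides, with 21 values above 0 and 16 below, a median of 0.03, and groups that did not overlap in 4 members upward and 5 downward, where 8.48% of all genes were apart upward and 7.22% downward. Of all 19235 genes tested, 9626 were above 0. Tars2 had 82.7, 65.1 and 59.3 CPM in KO against 118, 108 and 102 CPM in WT (-0.66, SE 0.15, adjusted p = 0.169). Iars2 had 70.3, 56.1 and 81.3 CPM in KO against 50.7, 41.9 and 46.2 CPM in WT (0.58, SE 0.16, adjusted p = 0.227). Iars had 287, 218 and 211 CPM in KO against 209, 182 and 177 CPM in WT (0.33, SE 0.12, adjusted p = 0.323), and Lars2 had 5.86, 6.21 and 6.63 CPM in KO against 3.83, 5.11 and 4.899 CPM in WT (0.43, SE 0.18, adjusted p = 0.373). These comparisons and the day comparison in WT share the WT libraries of day 0, so their values are not independent. The summed mRNA of mitochondrial enzymes, as a share of that of cytosolic enzymes, was lower in every KO library than in every WT library at day 0 (8.49 to 9.15% in KO, 9.35 to 10.02% in WT). At day 7 the groups overlapped for this share (12.1 to 13.2% in KO, 11.96 to 13.4% in WT). Without Tars2, an alternative chosen after seeing the data, the day 0 share was 7.31 to 7.62% in KO and 7.27 to 7.92% in WT, and the groups overlapped. By the second counting, which gave higher Tars2 values in 2 of these KO libraries, the day 0 share with Tars2 was 8.77 to 9.08% in KO and 9.13 to 10.3% in WT.

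The change over 7 days did not pass as different between the genotypes for any member. The interaction, which is the KO change minus the WT change, was called for 0 of 37 members, where 0.026% of all genes were called, and 7 members had an unadjusted p of at most 0.05, where 6.86% of all genes did. Its lowest adjusted p was that of Sars (-0.52, SE 0.13, adjusted p = 0.355), which fell by 1.43 in KO and by 0.91 in WT. Iars2 had -0.68, SE 0.23, adjusted p = 0.565, Lars2 -0.67, SE 0.25, adjusted p = 0.608 and Tars2 0.42, SE 0.20, adjusted p = 0.757. The interaction was below 0 in 16 of 18 cytosolic, 9 of 17 mitochondrial and 26 of all 37 members, with a median of -0.16 over the members and -0.05 over all genes, of which 8411 of 19235 were above 0. It shares libraries with the day 7 comparison above.

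The deposited counts divided by parental genome give a second counting of the same reads, as the sum of genome 1, genome 2 and unassigned counts, and this check was chosen after seeing the data. In 25 of 37 members the second count stayed between 0.8 and 1/0.8 times the first in every library. In Pars2 the first count gave 2.69, 15.6 and 12.8 CPM in KO and 1.64, 12.3 and 1.39 CPM in WT at day 0, and the second gave 5.84, 6.18 and 5.98 CPM in KO and 5.201, 4.13 and 3.56 CPM in WT. The wide spread of Pars2 at day 0 was thus not in the second count, which spread more at day 7 instead (5.49, 10.1 and 4.82 CPM in KO, 4.16, 6.57 and 8.34 CPM in WT). No Pars2 value is read as a difference, and the Pars2 to Eprs ratio counted above used the first count. In Tars2 the second count was 1.59 times the first in 2 KO libraries of day 0 and 0.97 to 1.01 times in all other libraries. Its day 0 difference between KO and WT was -0.23, SE 0.12, adjusted p = 0.489 by the second count in place of -0.66, and its fall over 7 days in KO was -1.04, SE 0.13, adjusted p = 1.99e-05 in place of -0.57. By the second count Iars, 1.145 to 1.495 times the first, fell in WT as well (-0.28, SE 0.09, adjusted p = 0.0150), as did Ears2 (-0.45, SE 0.14, adjusted p = 0.0132), and Hars rose in WT (0.19, SE 0.07, adjusted p = 0.0322) and Hars2 in KO (0.45, SE 0.17, adjusted p = 0.0376). Wars in WT (0.21, SE 0.11, adjusted p = 0.114) and Vars2 in KO (-0.24, SE 0.13, adjusted p = 0.122) no longer passed by it.

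**Figure D5:**
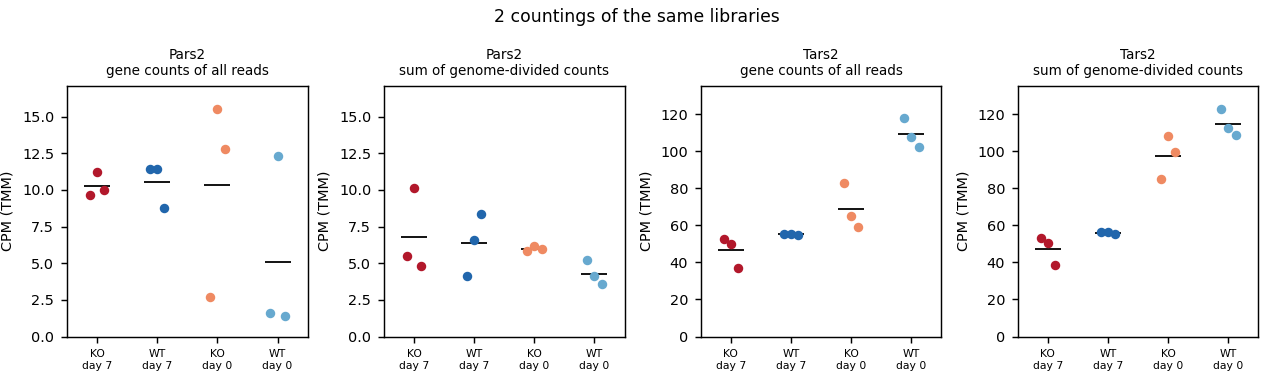
CPM per library (y axis, from 0) of Pars2 and Tars2 by the whole-genome gene counts and by the sum of the genome-divided counts. Points are libraries and the line is the mean of 3. The Pars2 spread at day 0 and the 2 low KO values of Tars2 at day 0 are in the first counting only.

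Some members share sequence or a start region with another gene, and the strand setting of the counting is not given in the sources used here. An exon of 14 of the 37 members is touched by a gene on the other strand, among them Mars1 by Ddit3 and Vars2 by Gm20483. Ddit3 held at most 0.417 CPM in any library. Hars and Hars2 are neighbours that start head to head with overlapping first exons, so reads there cannot be assigned without strand. Head-to-head protein-coding partners within 1000 bases also lie beside members such as Yars (S100pbp), Kars (Terf2ip), Ears2 (Ubfd1), Fars2 (Lyrm4), Rars2 (Orc3) and Sars2 (Mrps12).

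Reads that could be given to a parental genome placed the members in 3 classes. The columns do not say which strain is genome 1. Of the 34 members with at least 20 such reads in every library, 15 had under 1% genome 2 reads over all libraries, 4 had over 99%, and 15 had reads of both. Over all genes with that depth 40.0% were genome 1 only, 2.91% genome 2 only and 57.1% both. Over all genes together, genome 2 took 27.0 to 28.0% of such reads in each library. The genome 2 only genes were Dars, Eprs and Iars2, all on chromosome 1, and Vars2 on chromosome 17. Chromosome 1 also held Mars2, with 0% genome 2 reads, and Farsb, with 25.9%, and chromosome 17 held Aars2, with 0%. Aars, Gars, Kars, Sars, Cars and Tars were genome 1 only. Sars2 was nearly even, with 49.8 to 55.2% genome 2 reads over the 12 libraries, and Iars had 41.7 to 46.9%. Yars had 43.7, 44.9 and 43.5% genome 2 reads in KO and 45.1, 47.7 and 44.4% in WT at day 7, and 44.9, 39.7 and 38.6% in KO and 40.2, 42.3 and 36.5% in WT at day 0.

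Allelic balance could be compared in the 15 members with reads of both genomes, and none passed as changed. Nearly all estimates of the 19 members with reads of almost 1 genome alone had a standard error above 1 on the log2 scale or none that could be computed, so their p-values carry little information. With all 34 members in the fit the test called 0 in each of the 4 comparisons, where it called 2.09% of all genes tested for day 7 against day 0 in KO, 2.24% for the same in WT, 0% for KO against WT at day 7 and 0.00952% at day 0. The members with an unadjusted p of at most 0.05 were 1, 2, 1 and 1 of 34 in the same order. Over all genes tested they were 924 of 9807, 1152 of 9760, 241 of 11032 and 195 of 10502. DESeq2 called Lars in both day comparisons, among 424 genes called in KO and 534 in WT. The genome 2 share of Lars averaged 10.5% in KO and 7.35% in WT at day 7, and 4.22% in KO and 2.26% in WT at day 0. Where all genes were made overdispersed in simulated data, the test had little power for moderate shifts, so a member that was not called is not shown to be unchanged.

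Other genes that handle amino acids and tRNA also changed over the 7 days. Of 16 genes of the amino acid stress response outside the synthetases, 12 fell and 1 rose in KO, and 10 fell and 2 rose in WT, with medians of -0.77 and -0.59. Over all genes 32.3% fell and 31.1% rose in KO, and 32.1% fell and 32.9% rose in WT. Asns (asparagine synthetase) fell by 2.20 in KO and by 1.83 in WT, and Chac1 and Trib3 fell by 3.69 and 3.61 in KO and by 3.63 and 3.39 in WT. Slc7a11, the cystine transporter and a gene of the same list, rose by 2.09 in KO and by 2.06 in WT. Atf4 itself did not pass (-0.24, SE 0.58, in KO and 0.15, SE 0.58, in WT), and its libraries spread widely, from 131 to 377 CPM at day 7 and from 143 to 436 CPM at day 0. Myc and Mycn did not pass in either genotype. At day 7 the stress genes had a median KO against WT difference of -0.29, and 0 of 16 passed (lowest adjusted p = 0.0622, for Asns at -0.45).

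The counts of the lists that follow stand beside 32.3% of all genes that fell and 31.1% that rose in KO, and 32.1% that fell and 32.9% that rose in WT. Of 8 amino acid transporters 5 fell and 3 rose in KO, and 5 fell and 2 rose in WT. Slc7a3, a carrier of arginine and lysine, fell furthest, by 4.13 in KO and by 3.81 in WT. All 5 listed proofreading genes and relatives fell in both genotypes, Dtd2 by 1.66 in KO and by 1.53 in WT. Among 5 cytosolic elongation factors 4 fell in KO, and 4 fell and 1 rose in WT: Eef1a1, which brings charged tRNA to the ribosome, fell by 0.54 in KO and by 0.28 in WT, and Eef2 had 0.16, SE 0.08, adjusted p = 0.0843 in KO and 0.37, SE 0.08, adjusted p = 0.00135 in WT. Of 8 mitochondrial translation factors 5 fell in KO and 4 in WT, with Tufm, the mitochondrial counterpart of Eef1a1, at -0.43 in KO and -0.46 in WT. Of the 4 genes of mitochondrial glutaminyl-tRNA formation and initiator formylation, Qrsl1 rose in both genotypes (0.71, SE 0.10, adjusted p = 8.25e-05 in KO, 0.67, SE 0.10, adjusted p = 0.000120 in WT), Gatb fell in KO (-0.38) and Mtfmt in WT (-0.60). Of the 5 genes for selenocysteine and the CCA end, 2 fell and 0 rose in KO and 3 fell and 0 rose in WT, among them Eefsec (-1.01 in KO and -0.98 in WT).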

How the data were processed

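PolyA-selected RNA of 12 mouse ES cell libraries was analysed from the gene matrix of the whole genome. Its values are estimated counts per gene (expected counts), which the authors deposited as whole numbers, not normalized. StringTie 1.3.3, the aligner HISAT2 2.1.0, DESeq2 1.32.0, Trimmomatic 0.36 and the mm10 build are named per the submitters' processing notes, with no role given. The strand setting of the counting is not given in the sources used here.

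Counts were tested with edgeR 4.0.16 (R 4.3.3, limma 3.58.1): genes kept by its default filter by group, TMM scaling, a quasi-likelihood fit of all 12 libraries with 1 coefficient per group, and Benjamini-Hochberg adjustment over 19235 genes at 0.05. The SE is the size of the log2 fold change divided by the root of F. CPM used TMM library sizes, and levels per kb the merged exon length of GENCODE vM21 (GRCm38), which matched 55227 of 55487 gene IDs. Allelic balance was tested in edgeR on the deposited genome 1 and genome 2 counts, with the library as a block, for genes with at least 20 such reads in every library compared. DESeq2 1.42.0 was an alternative. Each test was tested on simulated data.

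Members were named by a rule: in each comparison up to 8 past the threshold each way per compartment, with the largest change, their partners in the other compartment, and always Gars, Kars, Lars2, Farsa, Farsb, Eprs, Qars and Pars2. Members named between KO and WT, where none passed, and some genes of the other lists were picked after their values were seen. The members and gene lists were chosen with earlier results of these data known, and the promoter motifs and the second counting after seeing the data. Same-numbered libraries did not deviate together (correlations from -0.024 to 0.061), so replicate numbers were not used as pairs. The values of 1 mitochondrial member, which entered all fits and counts, are not reported here.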

Additional observations from a re-analysis of the deposited data

How the results depend on the processing

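Of the 49 day differences that passed, 40 passed under every alternative and 9 were lost under at least 1, with 0 reversed: Aars2, Hars2, Rars2, Vars and Wars in WT, and Iars, Qars, Rars2 and Vars2 in KO. Hars2 was lost under 15 of 20 alternatives and Aars2 under 12 of 20. DESeq2 called 2 members between KO and WT at day 7 and 1 at day 0, where edgeR called 0 and 0. For allelic balance DESeq2 called 1 member (Lars) in each day comparison, where edgeR called 0. Over all genes DESeq2 called 424 there in KO and 534 in WT. The higher mitochondrial to cytosolic ratio at day 7 in KO, 0.53 on the log2 scale, was 0.44 per kb and 0.43 with Gars and Kars counted as cytosolic; both follow from the other weights given to genes. Without Tars2, an alternative chosen after seeing the data, the log2 ratio at day 7 over day 0 in WT was 0.51 in place of 0.36, and KO over WT at day 0 was -0.037 in place of -0.15. Leaving out 1 library at a time left 20 to 23 members called over the days in KO and 21 to 28 in WT, in either direction. These fits called 11284 to 12326 of all genes in KO and 11498 to 12913 in WT, of 19909 to 19978 tested. They called 0 members in each KO against WT comparison. With the replicate block 22 members were called in KO and 25 in WT over the days, where 11775 and 12144 of 19235 genes were called. With the block, both counts were near the share of all genes, and 0 members were called between KO and WT. Small differences between KO and WT, and moderate allelic shifts, are limited by 3 libraries per group.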
